A study of Homo sapiens with 32 samples.

Results

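The messenger RNAs of MYC, of 5 proteins that share its dimerisation partner network (MAX, MXD3, MXD4, MNT and MGA) and of 3 growth genes that MYC is known to activate (ODC1, TFRC and CAD) were followed in TMD8 and DOHH2, 2 human cell lines from diffuse large B-cell lymphoma. These 9 genes were chosen by name, and all 9 were found among the 25066 features of the deposited table. Cells of both lines, all engineered to carry Cas9, were treated with 500 nM CSKi or with the vehicle DMSO for 1, 3, 6 or 24 h. CSKi is, by its name, an inhibitor of CSK, the kinase that restrains the SRC family kinases. The 16 groups were therefore TMD8 and DOHH2 under CSKi and under DMSO at each of the 4 times, with 2 libraries labelled as biological replicates in each, or 32 libraries in all. The labels do not say whether the duplicates came from separate cultures, so p-values measure the spread between these libraries. By background knowledge, TMD8 belongs to the activated B-cell subtype and DOHH2 to the germinal centre subtype, and each subtype is represented by 1 line.

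MYC is a transcription factor that binds DNA as a dimer with MAX, at the E-box sequence CACGTG, and raises genes of ribosome production, nucleotide synthesis and polyamine synthesis. MXD3, MXD4 and MNT compete for MAX and recruit repressors to the same sites, and MGA is a larger MAX partner found in a Polycomb-type repressor complex. In B cells MYC is switched on by antigen receptor signalling, and its deregulation is common in aggressive lymphoma. ODC1 makes the first and limiting step of polyamine synthesis, TFRC is the transferrin receptor that brings iron into the cell, and CAD carries the first steps of pyrimidine synthesis.

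The E-box was searched in the RefSeq windows of GRCh38.p14 that run from 250 bases before to 50 bases after each annotated start. Because CACGTG is its own reverse complement, 1 search covers both strands. Of the 9 genes, 8 had such windows, 12 in all, and MYC had none, so MYC was not searched. The motif was in 3 windows, 1 each of ODC1, MXD4 and MNT, against 7.26% of all 35116 windows. The stretches below come from the 3 windows that held the motif. After 24 h of CSKi in TMD8, ODC1 was lower than in vehicle, and MXD4 and MNT were higher. Whether the motif bears on these differences was not tested. Each stretch is given 5′ to 3′ on the minus strand of the genome, the strand of the gene, with the motif in capitals. The ODC1 stretch is at chr2:10447990-10448053 and holds motifs that begin at offsets -29 and 5 from the annotated start, which is offset 0. The MXD4 stretch is at chr4:2262330-2262359, with the motif at offset -238. The MNT stretch is at chr17:2401236-2401265, with the motif at offset -193. A match is a description of these letters and does not show binding.
ODC1: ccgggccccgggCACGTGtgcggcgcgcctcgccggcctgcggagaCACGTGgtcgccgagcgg
MXD4: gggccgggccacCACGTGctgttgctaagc
MNT: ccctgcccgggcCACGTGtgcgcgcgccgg

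The values are log2 normalised read counts as the authors deposited them, relative to each library's sequenced RNA, so a change in RNA per cell is not measured, and in bulk RNA fewer cells of a type and less RNA per cell cannot be told apart. Libraries held between 12273442 and 24907030 mapped reads. The 9 genes had 204 to 26131 reads in any library, so counting error alone reached 7% (coefficient of variation) at the lowest. The B-cell markers CD79A, CD79B, MS4A1 and PAX5 were at a log2 value of 11.42 or more in each library, and the epithelial genes EPCAM and KRT18 had at most 1 read. Some markers of other cell types did have reads. In TMD8 these were COL1A1 (217 to 640 reads) and COL1A2 (33 to 74). In DOHH2 they were the myeloid gene LYZ (87 to 176) and the T and NK cell genes NKG7 (24 to 65) and CD3E (7 to 28). In 14 of the 16 groups the log2 difference between duplicates had an SD over features of 0.210 to 0.273. The DOHH2 libraries of 24 h stood apart. There the SD was 0.398 between the CSKi duplicates and 0.371 between the DMSO duplicates, but 0.278 between the library labelled CSKi replicate 2 and the one labelled DMSO replicate 1. Results that use these 4 libraries are given as labelled, and those of the DOHH2 fits and of the tests between the lines also without them.

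In TMD8 cells, MYC itself was lower under CSKi from 3 h on. After 1 h the CSKi libraries were at 11.82 and 11.84 and the DMSO libraries at 11.75 and 11.89, so the groups overlapped. After 3 h, MYC was at 10.52 and 10.41 in CSKi cells, against 11.39 and 11.27 in DMSO cells, a log2 difference of -0.86 ± 0.06 (SE), or 1.82-fold lower (limma, adjusted p = 7.65e-11). Both treated libraries lay below both vehicle libraries at 3, 6 and 24 h. After 6 h, MYC was at 10.74 and 10.64 in CSKi cells and 11.38 and 11.38 in DMSO cells (-0.69 ± 0.06, adjusted p = 3.44e-09). After 24 h, it was at 10.98 and 10.86 in CSKi cells and 11.64 and 11.74 in DMSO cells (-0.77 ± 0.06, adjusted p = 4.48e-11). The MYC response at 24 h minus that at 6 h was -0.08 ± 0.08, which did not pass the test (adjusted p = 0.516). The step from 3 h to 6 h was not tested. MYC was not flat in vehicle, where the libraries of 3 and 6 h (11.27 to 11.39) lay below those of 1 and 24 h (11.64 to 11.89).

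**Figure D1:**
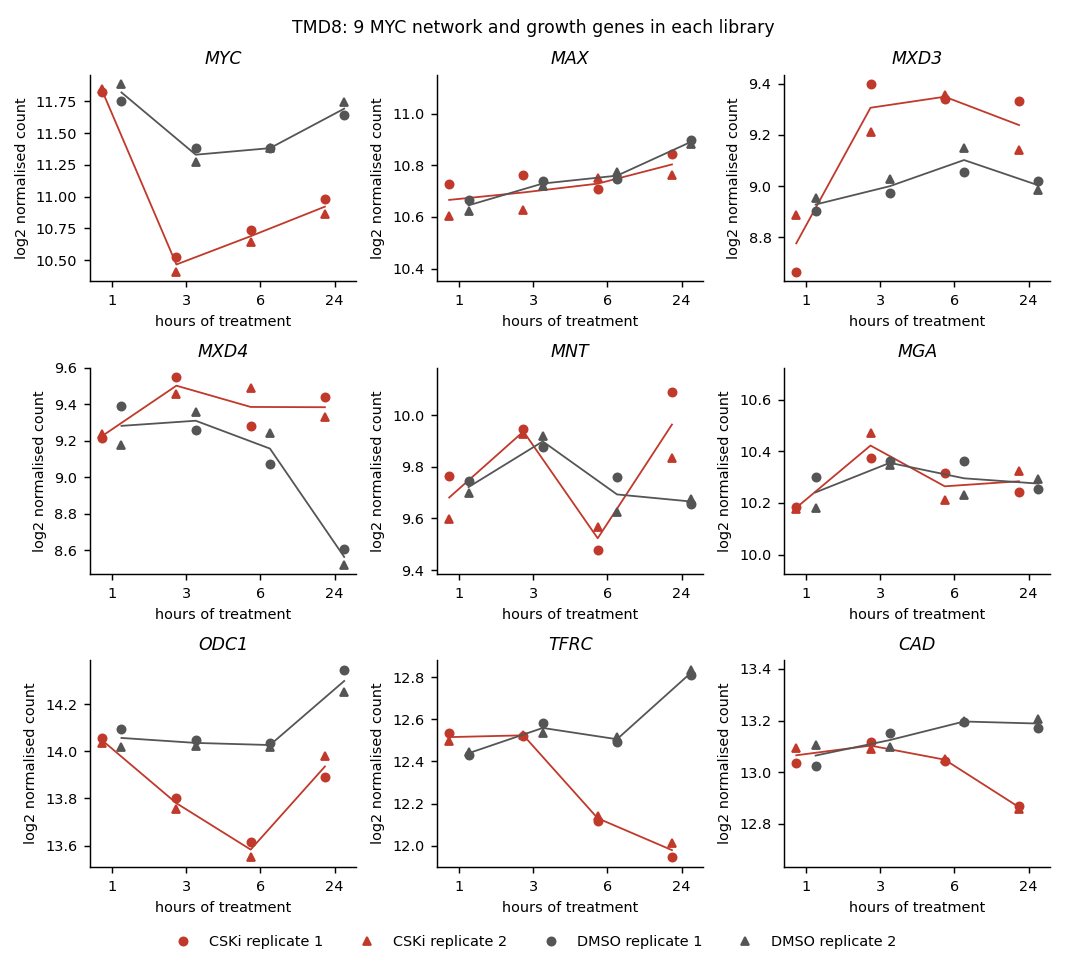
Log2 normalised count (vertical axis) of the 9 genes in each TMD8 library against hours of treatment, with CSKi in red, DMSO in grey, circles for replicate 1, triangles for replicate 2 and lines through the means of 2. MYC separates at 3 h (10.52 and 10.41 under CSKi, against 11.39 and 11.27 under DMSO), ODC1 follows at 3 and 6 h, and TFRC, CAD and MXD4 are furthest apart at 24 h.

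Among the 3 growth genes, ODC1 was called first, at 3 h, and TFRC and CAD at 6 h. None of the 9 genes was called after 1 h, when 0.05% of the 12000 tested features were called (adjusted p under 0.05), and none passed an unadjusted p under 0.05 or was called by voom on the recovered reads. After 3 h, 2 of the 9 were called, MYC and ODC1, against 4.73% of all features. ODC1 was at 13.80 and 13.76 in CSKi cells, against 14.05 and 14.02 in DMSO cells (-0.26 ± 0.04, adjusted p = 6.59e-05), while TFRC (-0.04 ± 0.04) and CAD (-0.02 ± 0.04) did not pass the test. After 6 h, 4 of the 9 were called, all lower, against 12.7% of all features called and 6.98% called lower. These were MYC and its 3 targets. Voom called the same 4 genes lower and, in addition, MXD3 higher.

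ODC1 after 6 h was at 13.62 and 13.55 in CSKi cells and at 14.03 and 14.02 in DMSO cells, 1.36-fold lower (-0.44 ± 0.04, adjusted p = 5.42e-09). TFRC was at 12.12 and 12.14 in CSKi cells and at 12.49 and 12.52 in DMSO cells (-0.38 ± 0.04, adjusted p = 8.10e-08). CAD moved least, with 13.05 and 13.05 in CSKi cells and 13.20 and 13.20 in DMSO cells (-0.15 ± 0.04, adjusted p = 0.00663). The groups did not overlap for any of the 3. The CAD call was lost without any 1 of 3 of the 4 libraries (both DMSO libraries and CSKi replicate 1), with an adjusted p of up to 0.0605 and differences of -0.15 to -0.14.

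After 24 h in TMD8, 7 of the 9 genes were called, 4 lower and 3 higher, against 54.0% of all features, so the count by itself is near what most genes showed at this time. TFRC was at 11.94 and 12.01 in CSKi cells and at 12.81 and 12.83 in DMSO cells, a 1.79-fold lower level (-0.84 ± 0.04, adjusted p = 3.86e-15). CAD was at 12.87 and 12.86 in CSKi cells, against 13.17 and 13.21 in DMSO cells (-0.32 ± 0.04, adjusted p = 4.86e-08). The responses of TFRC and CAD were larger at 24 h than at 6 h, by -0.47 ± 0.05 (adjusted p = 3.21e-07) and -0.18 ± 0.05 (adjusted p = 0.0111), in a test that called 4 of the 9 genes and 29.6% of all features. The CAD change was not called without DMSO replicate 2 of 24 h (adjusted p = 0.0573) or without the variance trend (adjusted p = 0.0523). ODC1 was at 13.89 and 13.98 in CSKi cells and at 14.35 and 14.25 in DMSO cells (-0.36 ± 0.04, adjusted p = 1.65e-08). Its response differed from that at 6 h by 0.08 ± 0.05, which did not pass the test (adjusted p = 0.284).

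The 3 genes called higher under CSKi in TMD8 at 24 h were the MAX-binding repressors MXD4, MNT and MXD3. MXD4 was at 9.44 and 9.33 in CSKi cells and at 8.61 and 8.52 in DMSO cells, 1.76-fold higher (0.82 ± 0.09, adjusted p = 4.91e-08). In the vehicle, MXD4 was lower after 24 h than after 1 h by -0.72 ± 0.09 (adjusted p = 6.65e-07), whereas the CSKi libraries stayed between 9.22 and 9.55 at all 4 times. The treated cells therefore differed from vehicle cells whose own level had moved. MNT was at 10.09 and 9.84 in CSKi cells and at 9.66 and 9.67 in DMSO cells (0.30 ± 0.08, adjusted p = 0.00295). Without CSKi replicate 1 the MNT difference was 0.17, with an adjusted p of 0.108. At 6 h the MNT difference was -0.17 ± 0.08 (adjusted p = 0.186), and the change between the 6 h and 24 h responses was 0.47 ± 0.11 (adjusted p = 0.00270). For MXD4 that change was 0.59 ± 0.13 (adjusted p = 0.00115).

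MXD3 after 24 h was at 9.33 and 9.14 in CSKi cells and at 9.02 and 8.99 in DMSO cells (0.24 ± 0.09, adjusted p = 0.0350). It was also higher in both CSKi libraries at 3 h, with 9.40 and 9.21 against 8.97 and 9.03 in DMSO cells, but did not pass the test there (0.31 ± 0.09, adjusted p = 0.0577). Voom called MXD3 higher at 3 h (0.32, adjusted p = 0.0342) and at 6 h (0.25, adjusted p = 0.0397), and scaling to total mapped reads did so at 3 h (0.32, adjusted p = 0.0458). The 24 h call of MXD3 was lost without any 1 of 3 of the 4 libraries (both DMSO libraries and CSKi replicate 1), with differences of 0.14 to 0.33 and adjusted p up to 0.305. Exons of MXD3 share 731 of 3292 bases with PRELID1 on the opposite strand, and of MNT 21.32% with an antisense gene, in GENCODE v29. The strand setting of the counting is not given, so reads of these pairs may be mixed. PRELID1 moved the other way from MXD3 at 24 h (-0.42 ± 0.05, adjusted p = 1.80e-07). In vehicle, PRELID1 was lower in TMD8 than in DOHH2 (-0.55 ± 0.03, adjusted p = 1.31e-15), the same direction as MXD3. The part of mixed reads in these values was not tested.

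MAX and MGA were not called at any time in either line as labelled. MAX after 24 h in TMD8 was at 10.84 and 10.76 in CSKi cells and at 10.90 and 10.88 in DMSO cells (-0.09 ± 0.06, adjusted p = 0.201). MGA was at 10.24 and 10.32 in CSKi cells and at 10.26 and 10.29 in DMSO cells (0.01 ± 0.07, adjusted p = 0.919). The 2 groups overlapped for MGA but not for MAX, and a p that misses the threshold does not show that a level stayed the same.

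**Figure D2:**
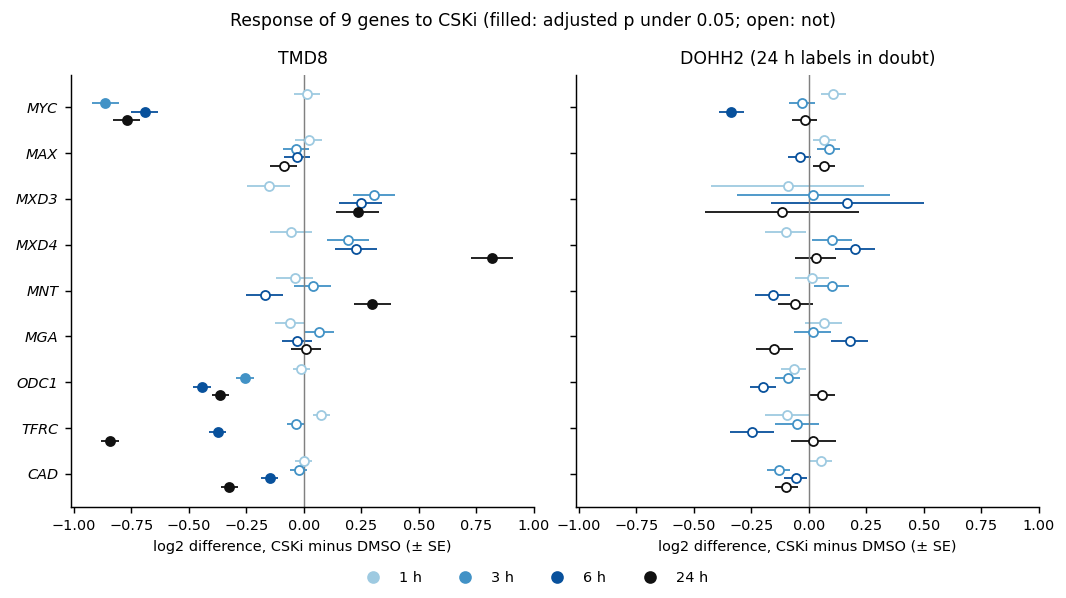
Log2 difference, CSKi minus DMSO (horizontal axis, bars ± SE of the limma fit), of the 9 genes in TMD8 (left) and DOHH2 (right) at 1, 3, 6 and 24 h, light to dark, with filled points at adjusted p under 0.05. In TMD8, MYC (-0.86, -0.69 and -0.77 from 3 h on), ODC1, TFRC and CAD lie left of 0 and MXD4 (0.82 at 24 h) right of it, while in DOHH2 only MYC at 6 h (-0.34) is filled.

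On a scale per kb of 1 transcript for each gene, MYC was lower relative to MAX under CSKi in TMD8 from 3 h on. The log2 level of MYC minus that of MAX was -0.39 and -0.36 in CSKi cells at 3 h, against 0.50 and 0.41 in DMSO cells. At 24 h it was -0.01 and -0.05 in CSKi cells, against 0.60 and 0.71 in DMSO cells. On this scale MYC stood below MAX in each CSKi library from 3 h on and above it in each DMSO library. That order depends on the transcript lengths used (2366 bases for MYC and 2141 for MAX), whereas the gap between CSKi and DMSO cells does not. Before length scaling, MYC was below MAX in both CSKi libraries at 3 h (10.52 against 10.76 and 10.41 against 10.63). At 24 h it was above MAX in both (10.98 against 10.84 and 10.86 against 10.76). The level of MYC minus that of MXD4 at 24 h was 2.32 and 2.31 in CSKi cells, against 3.81 and 4.0 in DMSO cells. In DOHH2 all 16 libraries had MYC above MAX, by 1.64 to 2.15. These differences of levels were not tested.

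At 24 h, markers outside the 9 genes moved with CSKi in TMD8 too. The summed normalised count of the 4 B-cell markers was 112390 to 115564 in CSKi cells and 81912 to 82998 in DMSO cells. The sum of COL1A1, COL1A2, EPCAM and KRT18 was 1240 to 1420 in CSKi cells and 460 to 504 in DMSO cells, carried by the collagen genes COL1A1 and COL1A2, since EPCAM and KRT18 were at or near 0. The sums of the T and NK cell markers (8 to 14 in CSKi cells, 11 to 12 in DMSO cells) and the myeloid markers (14 to 16 in CSKi cells, 9 to 10 in DMSO cells) were near 0. The part of these changes in the 24 h results was not tested. At 3 h, when MYC was already 1.82-fold lower, the B-cell sum was 87499 to 88772 in CSKi cells and 86633 to 87463 in DMSO cells.

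CSK, the named target of the inhibitor, was lower in TMD8 at 3 h by a log2 difference of -0.14 ± 0.04 (adjusted p = 0.0216). It was not called in TMD8 at the other times. In DOHH2, with the 24 h libraries in the fit, CSK was not called. Its differences there were -0.159 ± 0.064 at 3 h (adjusted p = 0.246) and -0.205 ± 0.064 at 6 h (adjusted p = 0.154). The TMD8 response minus the DOHH2 response of CSK at 3 h was 0.024 ± 0.073 (adjusted p = 0.955). Values of CSK without the 24 h libraries are not given here. EGR2, an early response gene, was lower at 1 h in TMD8 (-2.02 ± 0.17, adjusted p = 4.25e-08) and in DOHH2 (-2.61 ± 0.21, adjusted p = 2.34e-05), when MYC was not called in either line.

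In DOHH2, MYC was lower under CSKi at 6 h. The CSKi libraries were at 13.43 and 13.54 and the DMSO libraries at 13.81 and 13.83, 1.26-fold lower (-0.34 ± 0.06, adjusted p = 0.00854), and the groups did not overlap. It was the only one of the 9 genes called, against 0.883% of all features. Without the 4 libraries of 24 h in the fit, the same difference had an adjusted p of 7.63e-08. With them, the call was lost without any 1 of 3 of the 4 libraries of 6 h (both DMSO libraries and CSKi replicate 1), with values of -0.39 to -0.28 and adjusted p up to 0.225. At 1 h, in the fit with the 24 h libraries, none of the 9 was called, against 0.375% of features. Nor did any pass an unadjusted p under 0.05 in that fit. MYC was then at 13.33 and 13.35 in CSKi cells and at 13.27 and 13.20 in DMSO cells (0.11 ± 0.06, adjusted p = 0.959). At 3 h none was called, against 2.62% of features, and CAD alone passed an unadjusted p under 0.05. Voom called none of the 9 at either time. MYC was then at 13.64 and 13.62 in CSKi cells and at 13.66 and 13.66 in DMSO cells (-0.03 ± 0.06, adjusted p = 0.879).

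**Figure D3:**
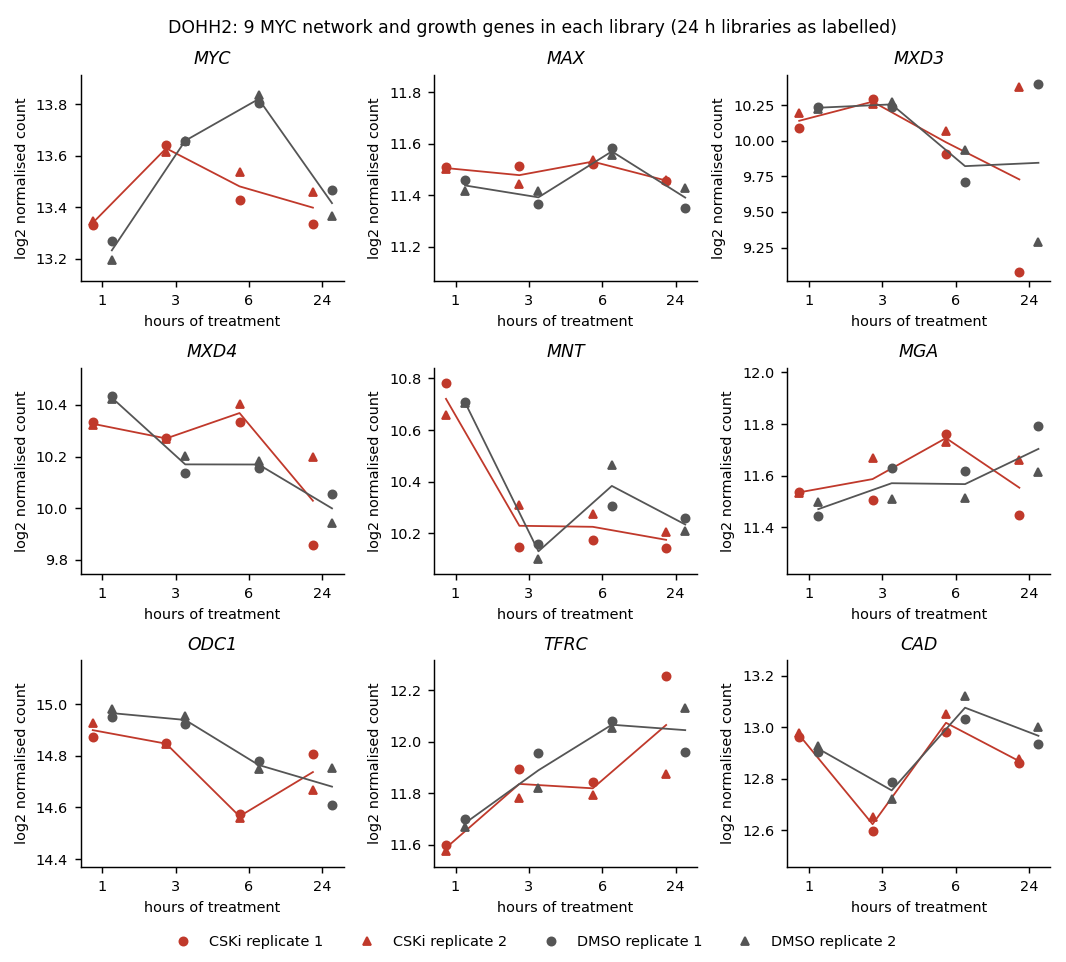
Log2 normalised count (vertical axis) of the 9 genes in each DOHH2 library against hours of treatment, drawn as for TMD8, with the 24 h libraries as labelled. MYC is lower under CSKi at 6 h (13.43 and 13.54, against 13.81 and 13.83 under DMSO), and at 24 h the duplicates of MXD3 lie far apart in both groups (9.08 and 10.38 under CSKi, 10.40 and 9.29 under DMSO).

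More of the 9 genes passed in DOHH2 once the 24 h libraries were left out of the fit. At 6 h, 5 were called, 3 lower and 2 higher, against 13.6% of all features (6.67% lower and 6.96% higher). ODC1 was at 14.57 and 14.56 in CSKi cells and at 14.78 and 14.75 in DMSO cells (-0.20 ± 0.03, adjusted p = 1.09e-05, against 0.112 with the 24 h libraries). TFRC was at 11.84 and 11.80 in CSKi cells and at 12.08 and 12.05 in DMSO cells (-0.25 ± 0.05, adjusted p = 0.000457, against 0.270). Both targets were lower in each CSKi library than in each DMSO library. MXD4 was at 10.33 and 10.41 in CSKi cells and at 10.16 and 10.18 in DMSO cells (0.20 ± 0.06, adjusted p = 0.0151, against 0.346). MGA was at 11.76 and 11.73 in CSKi cells and at 11.62 and 11.52 in DMSO cells (0.18 ± 0.05, adjusted p = 0.0210, against 0.362). At 1 h in this fit, none of the 9 was called. MYC (0.107 ± 0.035), ODC1 (-0.066 ± 0.028) and TFRC (-0.096 ± 0.047) did pass an unadjusted limma p under 0.05 there. At 3 h in this fit, 2 were called, against 14.5% of features. CAD was at 12.60 and 12.65 in CSKi cells and at 12.79 and 12.72 in DMSO cells (-0.13 ± 0.04, adjusted p = 0.0197), and ODC1 differed by -0.09 ± 0.03 (adjusted p = 0.0280).

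At 24 h in DOHH2, as labelled, none of the 9 genes was called, nor was any feature (0%), by limma. None of the 9 passed an unadjusted p under 0.05, as 378 of the 12000 features did, and voom called 0 of the 9 and 0 features. MYC was at 13.34 and 13.46 in CSKi libraries and at 13.47 and 13.37 in DMSO libraries. MXD3 was at 9.08 and 10.38 in CSKi libraries and at 10.40 and 9.29 in DMSO libraries. TFRC was at 12.25 and 11.88 in CSKi libraries and at 11.96 and 12.13 in DMSO libraries. For 5 of the 9 genes (MYC, MXD3, MXD4, ODC1 and TFRC) CSKi replicate 1 lay nearest DMSO replicate 2 and CSKi replicate 2 nearest DMSO replicate 1, and for the other 4 (MAX, MNT, MGA and CAD) they did not. With the labels of these libraries in doubt, no direction is drawn for DOHH2 at 24 h.

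The difference between the lines in response was tested directly. The MYC response of TMD8 minus that of DOHH2 was -0.83 ± 0.08 at 3 h (adjusted p = 2.83e-06), when MYC alone of the 9 genes was called, against 1.26% of features. At 6 h, MYC was again the only one of the 9, against 2.08% of features (-0.35 ± 0.08, adjusted p = 0.0234). The 6 h call was lost without any 1 of 6 of the 8 libraries involved, with values of -0.41 to -0.30 and adjusted p up to 0.148. Without the DOHH2 libraries of 24 h in the fit it had an adjusted p of 0.00377, and ODC1 was then called too (-0.24 ± 0.05, adjusted p = 0.00238), against 5.97% of features. At 3 h, MYC then had an adjusted p of 1.83e-07, against 4.83% of features. At 1 h, with the DOHH2 libraries of 24 h in the fit, none of the 9 differed past the threshold, against 0.142% of features. Nor did any differ there at an unadjusted p under 0.05 or by voom. Without those libraries none was called at 1 h either, but TFRC alone (0.173 ± 0.058) passed an unadjusted limma p under 0.05. At 24 h, 6 of the 9 differed, against 32.6% of features, 4 lower in the TMD8 response (MYC, ODC1, TFRC and CAD, against 16.4% of features) and 2 higher (MXD4 and MNT, against 16.2%), but these values rest on the DOHH2 libraries whose labels are in doubt, and in a fit of only the groups compared 2 of the 9, MYC and TFRC, were called. MYC was thus lower in TMD8 at 3 h, when DOHH2 showed no called change, and lower in both lines at 6 h, by more in TMD8.

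The lines differed in all 9 genes in vehicle, where 89.1% of all features were called (46.5% lower in TMD8 and 42.6% higher). MYC had a lowest, median and highest log2 value of 11.27, 11.51 and 11.89 in the 8 TMD8 libraries, against 13.20, 13.56 and 13.83 in the 8 DOHH2 libraries. The line difference was -1.98 ± 0.03, 3.94-fold lower in TMD8 (adjusted p = 2.16e-25). The ranges did not overlap. Its 5 network partners were all lower in TMD8 as well, by log2 differences of -1.29 ± 0.04 for MGA, -1.11 ± 0.05 for MXD4, -1.03 ± 0.14 for MXD3, -0.69 ± 0.03 for MAX and -0.62 ± 0.04 for MNT. Of the targets, ODC1 was lower in TMD8 (-0.73 ± 0.02), but TFRC was higher (0.66 ± 0.04) and so was CAD (0.22 ± 0.02). TFRC had 12.43, 12.53 and 12.83 in TMD8, against 11.67, 11.96 and 12.13 in DOHH2. TFRC and CAD thus stood higher in the line with less MYC. All 9 genes were also called without the 24 h libraries of DOHH2 (MYC -2.06 ± 0.03), when 89.4% of features were called. Gene lists described below, with the 24 h libraries, were mixed. Of 9 purine enzymes 8 were lower in TMD8 and none higher, and of 8 pyrimidine genes 5 were lower and 2 higher. Of 16 further growth targets 10 were lower and 6 higher, and of 7 iron genes 3 were lower and 3 higher. The polyamine list had 5 lower and 4 higher of 10.

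**Figure D4:**
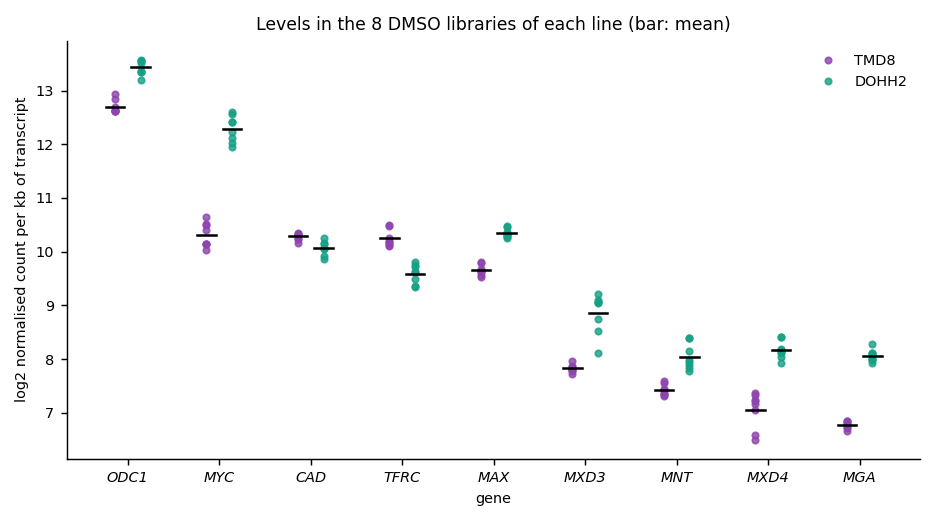
Log2 normalised count per kb of transcript (vertical axis) of the 9 genes in the 8 DMSO libraries of TMD8 (purple) and of DOHH2 (green), with a bar at the mean. ODC1 is highest in both lines (means of 12.70 in TMD8 and 13.43 in DOHH2), and MYC differs most between them (10.31 in TMD8 and 12.29 in DOHH2).

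Per kb of transcript, ODC1 had the highest level in both lines. In TMD8 it averaged 12.70 ± 0.13 (log2 per kb, SD, n = 8), and MYC (10.31 ± 0.23), CAD (10.28 ± 0.06) and TFRC (10.25 ± 0.16) followed with ranges that overlapped. MAX (9.66 ± 0.10) stood alone below them, then MXD3 (7.83 ± 0.07), then MNT (7.42 ± 0.11), MXD4 (7.06 ± 0.33) and MGA (6.78 ± 0.07), where MXD4 overlapped both of its neighbours. In DOHH2, ODC1 (13.43 ± 0.13) and MYC (12.29 ± 0.24) led with separate ranges. MAX (10.35 ± 0.08) and CAD (10.07 ± 0.13) came next and met at the edges of their ranges, above TFRC (9.59 ± 0.17). MXD3 (8.86 ± 0.37), MXD4 (8.17 ± 0.17), MGA (8.07 ± 0.11) and MNT (8.04 ± 0.24) formed the low end with ranges that overlapped from one to the next.

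Several of the 9 genes, but not all, differed between times in DMSO cells alone. In TMD8 under DMSO, 5 of the 9 differed between 24 h and 1 h, against 46.7% of features. TFRC was higher at 24 h by 0.38 ± 0.04 (adjusted p = 1.02e-08), MAX by 0.25 ± 0.06 (adjusted p = 0.00101), ODC1 by 0.24 ± 0.04 (adjusted p = 1.35e-05) and CAD by 0.12 ± 0.04 (adjusted p = 0.00717), and MXD4 was lower. The CAD call was lost without replicate 1 of 1 h or without replicate 2 of 24 h, with differences of 0.084 to 0.163 as 1 library was left out and adjusted p up to 0.131. In CSKi cells TFRC was at 11.94 and 12.01 at 24 h and at 12.53 and 12.50 at 1 h, so that the 24 h difference in TFRC comprised a higher vehicle level and a lower treated one. In DOHH2 under DMSO, 5 of the 9 differed between 6 h and 1 h, against 21.6% of features. MYC was higher at 6 h by 0.59 ± 0.06 (adjusted p = 2.41e-05), with 13.81 and 13.83 at 6 h and 13.27 and 13.20 at 1 h. TFRC (0.38 ± 0.10) and CAD (0.16 ± 0.05) were also higher, and MNT (-0.32 ± 0.08) and ODC1 (-0.20 ± 0.06) lower. The ODC1 difference depended on the scaling, at -0.053 under quantile normalisation (adjusted p = 0.409) and -0.151 when scaled to total mapped reads (adjusted p = 0.0722) or by voom (adjusted p = 0.0575). Leaving out any 1 of the 4 libraries left 1 or 2 of these calls, and leaving out the 24 h libraries gave 8, against 43.7% of features. The DOHH2 MYC difference at 6 h thus lay between CSKi cells at 13.43 and 13.54 and a vehicle that had itself gone up.

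Further genes of the same pathways were read from 7 lists. In TMD8 after 3 h, 3 of 16 further MYC growth targets (NOP56, EIF4A1 and CCND2) were lower and none higher, against 3.26% of features lower. Of 15 MYC partners and regulators, ZBTB17 alone was called, lower. No gene of the other lists was called then, though some passed an unadjusted limma p under 0.05. In TMD8 after 6 h, 7 of 9 purine synthesis enzymes were lower and none higher (median log2 difference -0.16, against 0.02 over all features, of which 6.98% were called lower). They included PFAS (-0.18 ± 0.04) and ATIC (-0.16 ± 0.04), both enzymes of the de novo ring pathway, and IMPDH1 (-0.22 ± 0.05) and GMPS (-0.18 ± 0.05), which lead on to guanine nucleotides. Of 16 further MYC growth targets, 7 were lower and none higher (median -0.09), among them the nucleolar proteins NOP56 (-0.28 ± 0.04) and NCL (-0.18 ± 0.03), the translation helicase EIF4A1 (-0.18 ± 0.03) and the cyclin CCND2 (-0.19 ± 0.04). The pyrimidine list had 2 of 8 lower, UCK2 (-0.40 ± 0.09) and CTPS (-0.21 ± 0.05). The polyamine list had 2 of 11 lower, spermidine synthase SRM (-0.21 ± 0.04) and AMD1 (-0.29 ± 0.07), which supplies its aminopropyl donor. Of 9 iron genes none was called, at a time when TFRC was, and none passed an unadjusted p under 0.05 or was called by voom. The MYC partners and regulators ZBTB17 and WDR5 and the network gene MLXIP were also called lower at 6 h.

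After 24 h more genes of these lists were called in TMD8, at a background of 26.2% of features lower and 27.9% higher. All 9 purine enzymes were lower (median -0.49), led by PAICS (-0.67 ± 0.04), ATIC (-0.54 ± 0.04), GMPS (-0.59 ± 0.05) and PPAT (-0.72 ± 0.07). Of the 16 growth targets 14 were lower and none higher (median -0.44), led by the mitochondrial chaperone HSPD1 (-0.75 ± 0.04), EIF4A1 (-0.57 ± 0.03), NCL (-0.57 ± 0.03) and NPM1 (-0.47 ± 0.03). The pyrimidine list had 6 of 8 lower, TYMS (-0.69 ± 0.04) and CTPS (-0.69 ± 0.05) among them, and 1 higher, CTPS2 (0.21 ± 0.07). The polyamine list moved both ways, with 4 of 11 lower and 2 higher. The synthetic enzymes SMS (-0.90 ± 0.04), SRM (-0.68 ± 0.04) and AMD1 (-0.57 ± 0.07) were lower, and the catabolic oxidase PAOX (0.65 ± 0.11) was higher. In vehicle alone, 14 of the 16 growth targets were higher at 24 h than at 1 h and none lower. Their median was 0.19, against -0.01 over all features, of which 2733 of 12000 were called higher. The purine list had 5 higher and none lower there, the pyrimidine list 4 and 2, and the polyamine list 5 and 1. The 24 h differences of these lists were thus taken against a vehicle that had itself moved.

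The iron list had 3 lower and 1 higher of 9. The metalloreductase STEAP3 (-0.65 ± 0.11), the iron regulatory protein gene IREB2 (-0.22 ± 0.05) and the ferritin chain FTL were lower. The other ferritin chain, FTH1 (0.15 ± 0.04), whose reads may be shared with near-identical pseudogenes, was higher. Of 15 MYC partners and regulators 6 were lower and 3 higher, among them the helicases RUVBL1 (-0.37 ± 0.04) and RUVBL2 (-0.22 ± 0.04), the histone methyltransferase subunit WDR5 (-0.37 ± 0.05) and KIAA1524 (-0.62 ± 0.08), the gene of the protein CIP2A that stabilises MYC. Of the other network genes, 4 passed the filter on low values in TMD8. MXI1, a further MXD-family repressor, was higher (0.47 ± 0.12), and MLX (-0.28 ± 0.05) and MLXIP (-0.19 ± 0.06), of the parallel MLX dimer network, were lower.

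**Figure D5:**
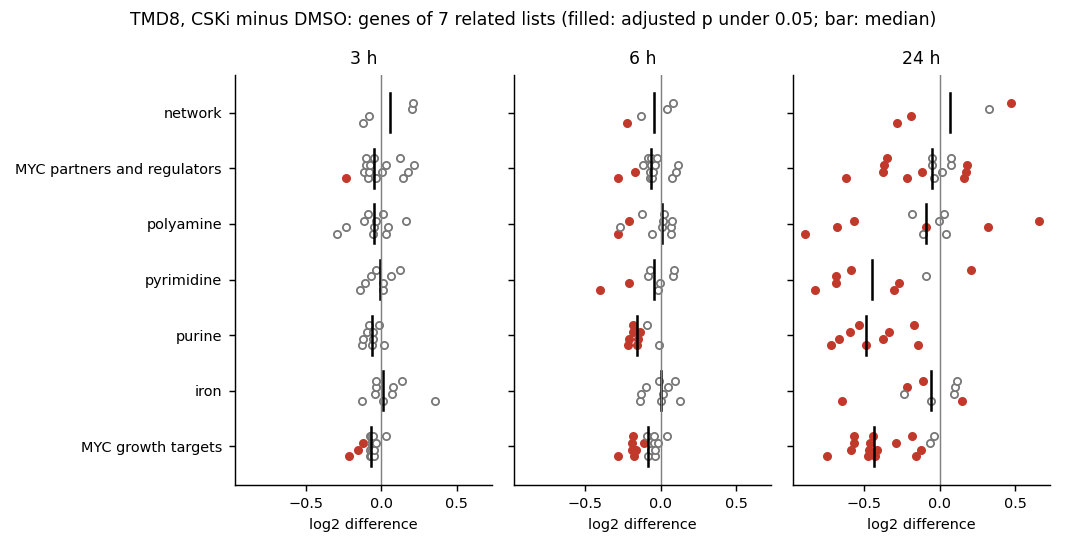
Log2 difference, CSKi minus DMSO, in TMD8 (horizontal axis) for each tested gene of the 7 lists at 3, 6 and 24 h, filled at adjusted p under 0.05, with a black bar at each list's median. The purine list (medians of -0.16 at 6 h and -0.49 at 24 h) and the growth targets (-0.09 at 6 h and -0.44 at 24 h) lie left of 0, and the iron list stays spread about it.

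In DOHH2 after 6 h no gene of these lists was called in the fit with the 24 h libraries, and voom called MXI1 alone. In that fit 4 growth targets, 4 purine enzymes and 3 MYC partners and regulators passed an unadjusted limma p under 0.05. So did 1 gene each of the network (MXI1), pyrimidine (CTPS2) and iron (SLC11A2) lists. Without the 24 h libraries, 7 of 15 growth targets were lower and none higher (median -0.09), against 6.67% of features lower. Among them were NOP56 (-0.17 ± 0.03), LDHA (-0.19 ± 0.04), NCL (-0.14 ± 0.03) and POLR1B (-0.26 ± 0.05). The purine list had 4 lower and 1 higher of 9, the higher being IMPDH2 (0.105 ± 0.031). The polyamine list had 3 lower of 10, AMD1 (-0.26 ± 0.05), AZIN1 (-0.19 ± 0.04) and SRM (-0.17 ± 0.04). MXI1 was higher in DOHH2 at 3 h, also with the 24 h libraries (0.51 ± 0.08, adjusted p = 0.00277). The counts of these lists are descriptions, and no test of a list as a whole was made.

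The genes whose responses lay nearest to those of MYC were found by the root mean square difference over 7 responses, TMD8 at 1, 3, 6 and 24 h and DOHH2 at 1, 3 and 6 h, among 10870 genes tested in both lines. The 5 nearest were LONRF1 (0.163), SNORA9 (0.173), TRAFD1 (0.188), C7orf40 (0.205) and PTPN7 (0.211). The median gene was at 0.549, and a gene with no change at all would be at 0.527. LONRF1 had log2 differences of -0.58, -0.79 and -0.52 in TMD8 at 3, 6 and 24 h and -0.18 in DOHH2 at 6 h. PTPN7, a phosphatase of blood cells, had -0.58, -0.49 and -0.41 in TMD8. The small nucleolar RNA SNORA9 lies within C7orf40, its host gene, so these 2 may share reads.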

How the data were processed

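HTSeq counting on build hg19 is named in the submitters' processing notes, and per the labels the libraries were stranded mRNA libraries read as pairs. The sources used here name no aligner, tool version, strand setting or scaling factor. The table the authors deposited holds log2 normalised counts (count times a library factor, 0 for no reads). Its first row, a total per library, entered no fit. Dividing by the factor gave whole reads within 0.1 for 97.9% to 100% of values up to 300 reads. Group means were fitted to the log2 values in limma 3.58.1 (R 4.3.3) with a variance trend and two-sided tests. P-values were adjusted by Benjamini-Hochberg across the 12000 features of highest mean (mean reads of at least 14.5 to 20.6, by fit) and called under 0.05. Comparisons within a line used its 16 libraries (8 residual degrees of freedom) and those between lines all 32 (16). Levels per kb used the GENCODE v29 transcript matched to each accession. Errors are standard errors of the fits unless named SD, and the fits were tested on simulated data. The text names all 9 genes, up to 4 called genes of each list by smallest p, the 5 genes nearest to MYC, and CSK and EGR2. Members, lists and rules were chosen with earlier results of these data known. Alternatives were other filters, pseudocounts, scalings, variance models, thresholds and sets of libraries, and voom on the recovered reads. Of the B-cell markers, 1 is not reported here and was left out of the marker sums.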

Additional observations from a re-analysis of the deposited data

Results flagged for a closer look

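The responses to CSKi differed between the lines, by the limma test of the difference itself, for 8 pairs of gene and time. The TMD8 response minus the DOHH2 response of MYC was -0.83 at 3 h (adjusted p = 2.83e-06), -0.35 at 6 h (adjusted p = 0.0234) and -0.75 at 24 h (adjusted p = 9.07e-07). At 24 h, 6 of the 9 genes differed, against 32.6% of all features. Higher in the TMD8 response were MXD4, by 0.79 (adjusted p = 0.000109), and MNT, by 0.36 (adjusted p = 0.0190). Lower were ODC1, by -0.42 (adjusted p = 8.53e-05), TFRC, by -0.86 (adjusted p = 3.76e-06), and CAD, by -0.23 (adjusted p = 0.00366). In a fit of only the groups compared, MXD4 (adjusted p = 0.0511), MNT (0.160), ODC1 (0.0776) and CAD (0.134) were not called, and MYC and TFRC were. The 24 h values rest on the 4 DOHH2 libraries whose labels are in doubt, and no value without them can be given. MXD3 at 24 h was not called (0.35 ± 0.38), but its value ran from -0.30 to 1.00 as 1 library at a time was left out. The MNT difference was lost without DOHH2 DMSO replicate 1, without DOHH2 CSKi replicate 1 or without TMD8 CSKi replicate 1 (0.23 to 0.49, adjusted p up to 0.149).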

How the results depend on the processing

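No value that passed the threshold changed sign under any alternative that was run. Most counts that moved were those of DOHH2 and of the tests between the lines. Of the 9 genes, the number called in DOHH2 at 3 h was 0, and 2 without the DOHH2 24 h libraries. In DOHH2 at 6 h it was 1, and 0 without the variance trend, 5 without the 24 h libraries and 2 in a fit of all 32 libraries, with 0 to 1 as 1 library was left out. Between the lines at 3 h it was 1, and 2 with only the groups of the contrast. At 6 h it was 1, and 0 with no filter, with no variance trend or at adjusted p under 0.01, and 2 under quantile normalisation, without the 24 h libraries or with only the groups of the contrast, with 0 to 1 as 1 library was left out. At 24 h it was 6, and 2 with only the groups of the contrast. In DOHH2 DMSO cells between 6 h and 1 h it was 5, and 3 without the variance trend, 2 at adjusted p under 0.01 and 8 without the 24 h libraries, with 1 to 2 as 1 library was left out.

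Over all features, leaving out the DOHH2 24 h libraries raised the calls in DOHH2 at 6 h to 1635, against 106 with them, and at 3 h to 1745, against 315. In TMD8 at 6 h the fit of all 32 libraries called 684, against 1518. MXD3 in TMD8 at 24 h was not called without the filter, under quantile normalisation, when scaled to total mapped reads, under voom on the recovered reads or in the fit of all 32 libraries (adjusted p 0.0613 to 0.508). CAD in TMD8 at 6 h was not called without the variance trend (adjusted p = 0.0526). Scaling to total mapped reads and voom were chosen after seeing the data.

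The labels number the duplicates 1 and 2 in each group. Deviations of same-numbered CSKi and DMSO libraries correlated across features at -0.020 to 0.071 in 7 of the 8 pairs of groups, so the numbers do not pair the libraries. A replicate block was fitted as a term shared by all times of a line, so it does not model pairs within a time. With it, 0, 2, 4 and 7 of the 9 genes were called in TMD8 at 1, 3, 6 and 24 h. In DOHH2 at 6 h it called 1, and all these counts were as without the block. In DOHH2 at 24 h the correlation was -0.377. A block with the CSKi numbers of 24 h crossed called 0 of the 9 and 0 of all features. That term too was shared by all times, so it cannot test a crossed pairing at 24 h. Duplicates limit each group to 2 values, and counting error of up to 7% per library adds to the error of the genes with the fewest reads.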
